A study of Mus musculus with 2 samples.

Results

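The 7 genes described here are the platelet-derived growth factor (PDGF) ligands Pdgfa, Pdgfb, Pdgfc and Pdgfd, the receptors Pdgfra and Pdgfrb, and the receptor-like gene Pdgfrl. They were taken by name from the 27998 genes of the count matrices, each name matched 1 row, and all 7 had counts in both libraries. Droplet-based single-cell RNA sequencing was done on whole tibialis anterior muscle at 2 time points following notexin, a venom phospholipase from snakes that destroys muscle fibres, after which the muscle regenerates. There was 1 library at day 2 and 1 at day 7, and each library came from 1 animal. The sample labels call both animals C57Bl/6 females of 7 months. The deposited cell table calls them C57BL/6J males, of 4 months at day 2 and 7 months at day 7. Among called barcodes Xist had 5 counts at day 2 and 1 at day 7, whereas 4 Y-linked genes together had 6575 and 4856 counts, which goes against the label of female sex. Day, animal and, by the cell table, age cannot be told apart in this design, and no undamaged muscle was analysed here.

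PDGF ligands are secreted dimers that bind receptor tyrosine kinases and drive growth, movement and survival of mesenchymal cells. PDGF-A and PDGF-C act mainly through the alpha receptor, PDGF-B binds both receptors, and PDGF-D acts mainly through the beta receptor. PDGF-C and PDGF-D are secreted as latent precursors whose CUB domain must be cut off by proteases, whereas PDGF-A and PDGF-B are cut inside the cell by proprotein convertases such as furin. In muscle, the alpha receptor is the usual marker of fibro-adipogenic progenitors (FAPs), the interstitial cells that make matrix after injury and can become fat cells. Endothelial PDGF-B acting on the beta receptor of pericytes and smooth muscle is a textbook example of signalling between neighbouring cell types. Pdgfrl encodes a secreted protein that resembles the extracellular part of the receptors and has no kinase domain.

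In GENCODE vM21 coordinates on mm10, Pdgfa lies on chromosome 5 from 138976014 to 138997370 and Pdgfra on the same chromosome from 75152292 to 75198215. Pdgfb lies on chromosome 15 from 79995874 to 80014977, Pdgfc on chromosome 3 from 81036416 to 81214040, Pdgfd on chromosome 9 from 6168584 to 6378850, and Pdgfrl on chromosome 8 from 40926212 to 40990785. The sequences below are the 250 bases before annotated transcript starts, from RefSeq on GRCm38.p6. They are shown for the 3 members that have such a window and whose level in FAPs differed between the libraries by more than counting error, described further on. Capitals mark GGGCGG, the core of the GC box, or TATAAA, both searched on either strand.

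Pdgfa, chr5:138994282-138994531, minus strand: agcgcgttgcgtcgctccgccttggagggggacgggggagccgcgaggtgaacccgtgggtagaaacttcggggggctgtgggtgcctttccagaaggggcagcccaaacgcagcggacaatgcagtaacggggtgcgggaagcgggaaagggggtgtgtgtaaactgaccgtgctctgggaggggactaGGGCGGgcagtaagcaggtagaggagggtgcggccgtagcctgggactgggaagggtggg
Pdgfa, chr5:138994945-138995194, minus strand: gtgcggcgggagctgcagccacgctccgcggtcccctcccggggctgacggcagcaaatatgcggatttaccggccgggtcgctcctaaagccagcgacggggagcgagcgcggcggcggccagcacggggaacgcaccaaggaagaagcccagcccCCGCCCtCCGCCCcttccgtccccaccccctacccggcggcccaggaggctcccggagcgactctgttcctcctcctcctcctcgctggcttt
Pdgfd, chr9:6168236-6168485, plus strand: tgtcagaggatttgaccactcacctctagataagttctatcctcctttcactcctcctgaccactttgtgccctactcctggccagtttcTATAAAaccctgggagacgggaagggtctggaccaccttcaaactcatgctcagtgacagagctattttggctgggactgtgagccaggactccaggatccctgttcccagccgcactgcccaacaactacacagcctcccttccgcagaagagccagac
Pdgfra, chr5:75152001-75152250, plus strand: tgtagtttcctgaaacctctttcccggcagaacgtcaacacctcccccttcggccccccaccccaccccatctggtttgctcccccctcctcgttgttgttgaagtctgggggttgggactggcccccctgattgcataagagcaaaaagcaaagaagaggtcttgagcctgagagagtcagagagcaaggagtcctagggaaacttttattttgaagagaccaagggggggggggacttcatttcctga

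The Pdgfa windows held 1 and 2 GC boxes and 66.4% and 72.4% G or C bases, the Pdgfd window held 1 TATAAA that begins 160 bases before the start, and the Pdgfra window held neither motif. Of all 32851 windows of this length, 32.7% held a GC box and 12.4% held TATAAA, so neither is particular to these genes. The libraries count transcript 3′ ends and do not show which start was used.

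After limits on genes, transcripts and mitochondrial share, 3178 barcodes at day 2 and 3196 at day 7 carried a cell type of the authors' annotation, which has 25, gathered here into 12 classes. These barcodes held 34026345 and 27620535 unique molecule counts, with medians of 9058.5 and 6583 per barcode, and 1 barcode sequence occurred in both libraries. Levels are counts of a gene scaled to 1000000 counts (CPM), summed over the barcodes of a type, with exact Poisson 95% intervals. With 1 library per day there is no replicate check and no test between days. Intervals cover counting error only, and differences between days are given as log2 ratios of day 7 over day 2 with exact binomial 95% intervals. Levels of different genes are not compared, because counts were not corrected for how well each transcript is captured. The annotation was made from all genes, the 7 described here included, so levels across cell types are descriptions.

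All 7 markers of each class were found in FAP, endothelial and monocyte/macrophage barcodes of both libraries. In FAPs they summed to 11495 CPM at day 2 and 47780 at day 7, and every FAP barcode held 3 or more counts of them. Markers of other classes also differed between days in FAP barcodes: the 5 tenocyte markers summed to 130 CPM at day 2 and 1114 at day 7, the 5 myofibre markers to 6.62 and 412, and the 7 monocyte/macrophage markers to 182 and 421. Smooth muscle-labelled barcodes did not match their name alone. Their 8 mural markers summed to 2915 CPM at day 2 and 4831 at day 7, but the 7 endothelial markers summed to 4833 and 7800 CPM in the same barcodes, against 5909 and 9248 in endothelial barcodes. Of the smooth muscle-labelled barcodes, 295 of 304 at day 2 and 205 of 232 at day 7 held 3 or more endothelial marker counts. Mcam among the mural markers and Esam among the endothelial ones are known in both kinds of cell. The barcodes of this label are therefore also given in 2 sets, a split chosen after the data were seen: 86 at day 2 and 76 at day 7 with more mural than endothelial marker counts, called mural-leading below, and the other 218 and 156.

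**Figure D1:**
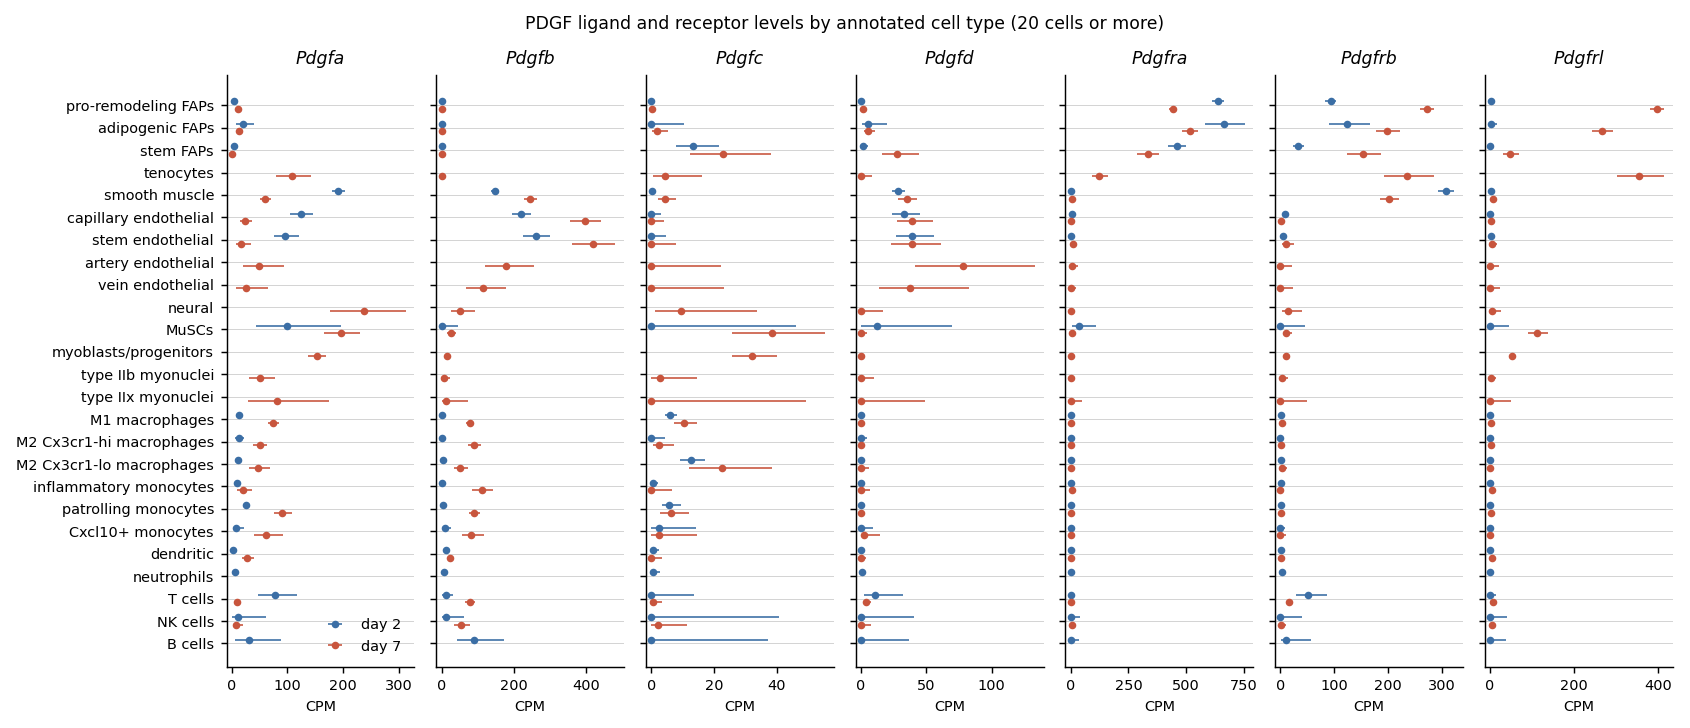
Level of each member in CPM (linear axes that differ between genes) in every annotated cell type with 20 barcodes or more, at day 2 (blue) and day 7 (red), with 95% Poisson intervals as bars. Pdgfra at day 7 sits in FAPs and tenocytes, Pdgfrl in these and, at 112 and 52.4 CPM, in muscle stem cells and myoblasts/progenitors, Pdgfb in endothelial and smooth muscle-labelled barcodes, and monocyte and macrophage types have more Pdgfa and Pdgfb at day 7 than at day 2.

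Pdgfa, the ligand of the alpha receptor, was lower at day 7 in the 3 main vascular types. At day 2 smooth muscle-labelled barcodes had 192 CPM (180 to 204), capillary endothelial barcodes 124 (105 to 145) and stem endothelial barcodes 96.4 (75.9 to 121). At day 7 the same types had 60.2 CPM (51.3 to 70.1), 23.7 (14.6 to 36.2) and 17.2 (7.43 to 33.9). Free RNA in empty droplets, taken from barcodes with at most 100 counts, held 15.7 CPM of Pdgfa at day 2 and 27.4 at day 7, above both endothelial types at the later day. Here and below, such CPM describe the make-up of free RNA and not how much of it a barcode held. The authors' removal of free RNA took off between 0.684% and 1.68% of a member's counts in the called barcodes of a library. On the log2 scale the day difference was -1.67 (-1.92 to -1.43) in smooth muscle-labelled, -2.39 (-3.12 to -1.72) in capillary and -2.49 (-3.75 to -1.44) in stem endothelial barcodes.

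Over whole annotated types, the highest Pdgfa levels of the day 7 library were outside vessels, although 27 smooth muscle-labelled barcodes with under 3 endothelial marker counts had 317 CPM (222 to 439). Neural barcodes, the glial cells of the nerve, had 238 CPM at day 7 (177 to 313), muscle stem cells (MuSCs) 196 (165 to 230), myoblasts/progenitors 152 (137 to 169) and tenocytes 107 (79.2 to 142), and each of these overlapped its neighbour in that order. At day 2 there were only 9 neural barcodes, at 273 CPM, and 16 tenocytes, at 133 CPM, and neither differed from its day 7 level by more than counting error. MuSC-labelled barcodes at day 2 were 21, and with the single myoblast of that day 5 of 22 held 3 or more counts of the 5 myogenic markers, so no day 2 level is read from them. The 3 haemoglobin markers, at 26800 CPM over these barcodes, reached 3 or more counts in 2 of the 22.

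Monocytes and macrophages differed between days in the opposite direction to vessels for Pdgfa, and the difference between the classes was not tested. Over the whole class it was 13.9 CPM at day 2 and 66.9 at day 7, a day difference of 2.27 on the log2 scale (2.04 to 2.50), below the empty droplets at day 2 and above them at day 7. Patrolling monocytes went from 25.6 to 90.8 CPM, M1 macrophages from 12.8 to 74.8, M2 macrophages with high Cx3cr1 from 12.7 to 49.7 and those with low Cx3cr1 from 10.5 to 46.7. In 5 of the 6 monocyte and macrophage types the interval lay above 0, and inflammatory monocytes were the exception at 9.53 and 19.8 CPM, with a log2 ratio of 1.05 (-0.12 to 2.14). T cells held 21 Pdgfa counts at day 2, of which 12 came from 1 barcode.

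In FAPs, the main cells of its receptor, Pdgfa was sparse and uneven. The class had 5.65 CPM at day 2 and 11.2 at day 7, a day difference of 0.98 on the log2 scale (0.37 to 1.64). Both levels were below those of the empty droplets, and the part of free RNA in the FAP values was not tested. Pro-remodeling FAPs had 4.56 and 11.7 CPM, a day difference of 1.36 on the log2 scale (0.56 to 2.25), whereas adipogenic FAPs had 19.7 and 13.4 CPM, with an interval of -1.83 to 0.91, and stem FAPs held 6 counts and then 0. Among FAP barcodes with few counts of other stromal, vascular or immune markers, 101 at day 2 and 184 at day 7, the log2 ratio was -0.60, so the direction depended on which FAPs entered.

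Of all Pdgfa counts in annotated barcodes, smooth muscle-labelled barcodes held 61.5% at day 2 (59.1 to 63.9) and 10.9% at day 7 (9.37 to 12.6). Myogenic barcodes held 35.1% and monocytes and macrophages 33.6% at day 7, and monocytes and macrophages 14.4% at day 2. These shares also follow how many barcodes of each class were recovered: myogenic barcodes were 0.692% of annotated barcodes at day 2 and 9.76% at day 7.

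Pdgfb, the ligand that binds both receptors, was an endothelial gene at both days and was joined by monocytes and macrophages at day 7. Stem endothelial barcodes had 261 CPM at day 2 and 419 at day 7, and capillary endothelial barcodes 220 and 398, and the log2 ratio was 0.68 (0.39 to 0.97) in the stem and 0.85 (0.62 to 1.09) in the capillary type. Artery endothelial barcodes, at 180 CPM, and vein endothelial barcodes, at 114 CPM, were lower than both at day 7 and overlapped each other. FAPs had 0.195 CPM at day 2 and 0.982 at day 7, from 1 and 8 counts.

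In monocytes and macrophages Pdgfb was 2.18 CPM at day 2 (36 counts) and 82.8 CPM at day 7 (623 counts), a day difference of 5.25 on the log2 scale (4.76 to 5.77). All 6 types had intervals above 0. M1 macrophages went from 0.738 CPM (5 counts) to 77.5, inflammatory monocytes from 1.59 (4 counts) to 111, patrolling monocytes from 3.6 (10 counts) to 90.8, and M2 macrophages with low Cx3cr1 from 3.49 (11 counts) to 50.2. The share of monocytes and macrophages with a Pdgfb count was 2.32% of 1292 at day 2 (1.57 to 3.30) and 40.0% of 757 at day 7 (36.5 to 43.6). Thinned to 2000 counts per barcode it was 0.233% of 1290 and 12.7% of 753.

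Empty droplets held Pdgfb at 12.1 CPM at day 2 and 52.6 at day 7. M2 macrophages with low Cx3cr1 were at about that level at day 7, with an interval of 33.6 to 72.1 CPM, and the other 5 types were above it. The summed level of the 7 endothelial markers in these myeloid types at day 7 was between 0.36% and 2.07% of the level in endothelial barcodes, whereas their Pdgfb was between 14.1% and 31.4% of it, and FAPs of the same library had 0.276% of it. NK cells at day 7 had 53.0 CPM of Pdgfb (34.6 to 77.6), with the endothelial markers at 2.20% of their endothelial level. The part of endothelial or free RNA in the myeloid and NK values was not tested. T cells went from 11 CPM (3 counts) at day 2, beside 216 in endothelial barcodes, to 77.5 (126 counts) at day 7 for Pdgfb. Their day 7 level was 21.8% of the endothelial one. But T cells also held the endothelial markers, at 22.8% of the endothelial level at day 2 and 16.2% at day 7. The part of endothelial RNA in the T cell value was not tested. Dendritic cells had 13.5 and 23.1 CPM, a day difference of 0.77 on the log2 scale (-0.07 to 1.61).

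Monocytes and macrophages held 29.0% of Pdgfb counts at day 7 (27.1 to 31.0) and 2.63% at day 2 (1.85 to 3.62). Endothelial barcodes held 38.2% at day 2 and 27.8% at day 7, and smooth muscle-labelled barcodes 55.2% and 31.1%. These shares also follow how many barcodes were recovered: at day 7 monocytes and macrophages were 23.7% of annotated barcodes and endothelial barcodes 10.4%. With equal weight for each class, given at the end, the day 7 share was larger in endothelial barcodes than in monocytes and macrophages.

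Smooth muscle-labelled Pdgfb was lower in barcodes where mural markers led. It was 148 CPM at day 2 and 247 at day 7 over all of them, but 73.5 and 162 CPM in mural-leading barcodes and 172 and 274 in the others. In the 9 and 27 barcodes with under 3 endothelial marker counts Pdgfb had 0 and 4 counts. These barcodes held only 34581 of 5107695 counts of the label at day 2 and 113552 of 2709692 at day 7, so the 0 allows up to 86.8 CPM, with 3 counts as the limit, and does not separate them from the mural-leading set. At day 7 they had 35.2 CPM (9.60 to 90.2), below the 162 CPM (133 to 195) of mural-leading barcodes with no overlap. Whether mural cells themselves transcribe Pdgfb here was not tested further.

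Pdgfc, a ligand that needs cleavage outside the cell, had few counts at both days, 121 in annotated barcodes at day 2 and 207 at day 7. At day 2 it was found in stem FAPs at 13.4 CPM (7.80 to 21.4), in M2 macrophages with low Cx3cr1 at 12.7 (9.06 to 17.3), and in M1 macrophages at 6.05 (4.35 to 8.21). At day 7 the same types had 22.8, 22.5 and 10.5 CPM, and the interval of the log2 ratio lay above 0 only in M1 macrophages among them, at 0.79 (0.10 to 1.48). Empty droplets held 1.64 CPM of Pdgfc at day 2 and 4.83 at day 7, and the part of free RNA in the M1 difference was not tested. MuSCs at 38.6 CPM (25.9 to 55.4) and myoblasts/progenitors at 32.3 (25.6 to 40.2) had the highest day 7 levels and overlapped each other and both stem FAPs (12.5 to 38.3) and M2 macrophages with low Cx3cr1 (12.0 to 38.5).

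Among FAP types most Pdgfc counts were in the stem type: pro-remodeling FAPs held 0 counts at day 2 and 1 at day 7, and adipogenic FAPs 0 and 3, against 17 and 14 in stem FAPs. At day 2 these 17 counts came from 7 of the 47 stem FAPs. The 0 counts of the 30 adipogenic FAPs at day 2 have an interval up to 10.4 CPM, which overlaps that of stem FAPs. At day 7 adipogenic FAPs had 1.82 CPM (0.376 to 5.32), below stem FAPs with no overlap. Endothelial barcodes held 0 Pdgfc counts at both days, which at 3 counts of their total allows up to 1.24 CPM at day 2 and 1.79 at day 7. Smooth muscle-labelled barcodes had 1 and 12 counts, 0.196 and 4.43 CPM, below the empty droplets at both days.

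Pdgfd, the other latent ligand and the one that acts on the beta receptor, was found in vessels and over each vascular class its day difference was within counting error. Artery endothelial barcodes, 15 at day 2 and 26 at day 7, had 86.8 CPM (43.3 to 155) and 77.9 (41.5 to 133). Capillary endothelial barcodes had 33.2 and 39.4 CPM, stem endothelial barcodes 39.3 and 38.7, and smooth muscle-labelled barcodes 28.4 and 35.4. The log2 ratio was 0.26 (-0.21 to 0.73) over all endothelial barcodes and 0.32 (-0.07 to 0.70) in smooth muscle-labelled ones. Smooth muscle-labelled barcodes that were not mural-leading were an exception at 29.1 and 41 CPM, a day difference of 0.50 on the log2 scale (0.07 to 0.92). Mural-leading barcodes had 26.2 and 18.1 CPM, below the 48.1 and 49.6 CPM of endothelial barcodes with under 3 mural marker counts, with intervals that overlapped at day 2 and did not at day 7.

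In FAPs as a class Pdgfd was 0.779 CPM at day 2 and 4.42 at day 7, from 4 and 36 counts, a day difference of 2.50 on the log2 scale (1.02 to 4.45). Empty droplets held 1.64 and 4.83 CPM of Pdgfd, above the FAP class at both days, and the part of free RNA was not tested. Stem FAPs stood above the other FAPs and the empty droplets at day 7. They had 27.7 CPM (16.2 to 44.4) from 17 counts, against 5.47 in adipogenic and 1.70 in pro-remodeling FAPs. At day 2 stem FAPs had 1.58 CPM from 2 counts, and the log2 ratio of 4.14 has an interval from 2.06 to 7.30. Stem FAPs thus held counts of both latent ligands at day 7, in 12.8% of 78 barcodes for Pdgfc and 19.2% for Pdgfd.

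**Figure D2:**
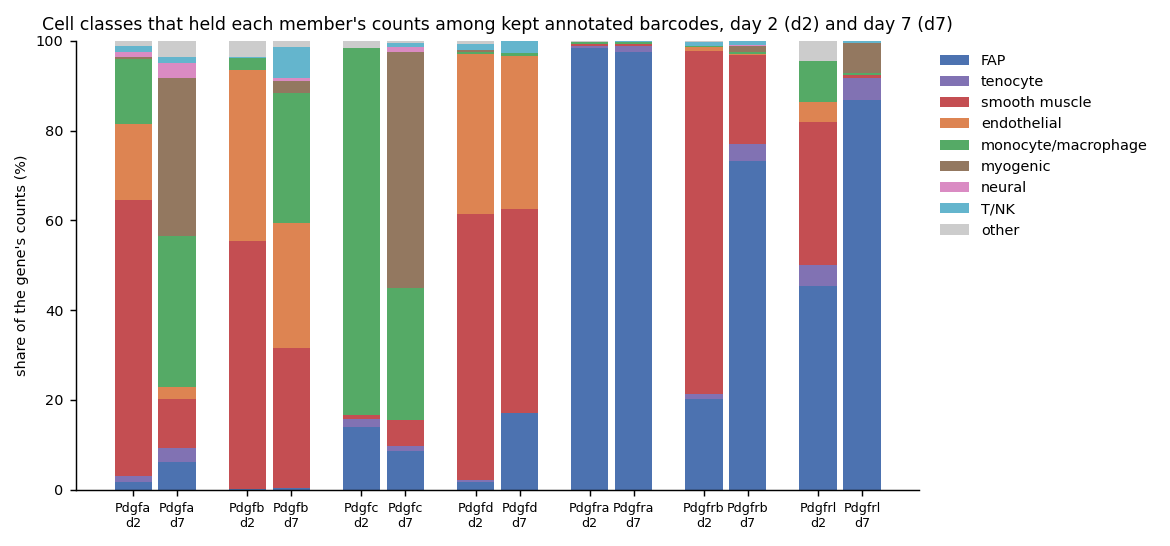
Share of each member's counts (percent of all its counts in annotated barcodes, 1 stacked bar per gene and day) held by each cell class. Smooth muscle-labelled barcodes hold 61.5% of Pdgfa at day 2 and 10.9% at day 7, and FAPs hold 98.5% and 97.5% of Pdgfra.

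Pdgfra, the alpha receptor, was a FAP gene at both days and had a lower CPM at day 7 in every FAP type. Adipogenic FAPs had 663 CPM at day 2 and 515 at day 7, pro-remodeling FAPs 639 and 445, and stem FAPs 458 and 333. The log2 ratios were -0.36 (-0.57 to -0.15), -0.52 (-0.60 to -0.44) and -0.46 (-0.70 to -0.23). Stem FAPs were below both other types at both days, and the adipogenic and pro-remodeling types overlapped at day 2 and not at day 7.

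FAPs held 98.5% of Pdgfra counts at day 2 (98.0 to 98.9) and 97.5% at day 7 (96.9 to 97.9). Tenocytes, the tendon fibroblasts, had 76.0 CPM (12 counts) and 123 CPM (55 counts). The monocyte/macrophage, endothelial and smooth muscle-labelled classes had between 0.607 and 3.69 CPM, below the 42.6 and 68.5 CPM of the empty droplets. The log2 ratio of 1.62 (0.34 to 2.95) in monocytes and macrophages rests on 10 and 14 counts at that low level.

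The share of FAPs with a Pdgfra count was 95.8% of 215 at day 2 and 89.8% of 805 at day 7, at median depths of 24329 and 8429 counts per barcode. Thinned to 2000 counts it was 56.8% of 213 and 56.6% of 785, so the per-barcode share showed no order between days. In dendritic cells, which should lack the gene, 0.588% and 0.690% of barcodes had a count, at median depths of 12015.5 and 6151.

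Pdgfrb, the beta receptor, lies on chromosome 18 from 61045150 to 61085061. Its level differed between days in opposite directions in FAPs and in smooth muscle-labelled barcodes. In FAPs it was 80.5 CPM at day 2 (72.9 to 88.6) and 248 at day 7 (238 to 260), a day difference of 1.63 on the log2 scale (1.47 to 1.78). Among the 101 and 184 FAP barcodes with few counts of other stromal, vascular or immune markers, tenocyte markers included, it was 1.27. Stem FAPs went from 32.3 to 153 CPM, pro-remodeling FAPs from 93.5 to 272 and adipogenic FAPs from 124 to 199, and in that order the day differences on the log2 scale were 2.25 (1.70 to 2.81), 1.54 (1.37 to 1.72) and 0.68 (0.23 to 1.17). The interval of stem FAPs did not overlap that of adipogenic FAPs.

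Smooth muscle-labelled barcodes had 307 CPM of Pdgfrb at day 2 and 202 at day 7, a day difference of -0.60 on the log2 scale (-0.75 to -0.46). In mural-leading barcodes it was 803 CPM (754 to 855) and 671 (610 to 736), with a log2 ratio of -0.26 (-0.42 to -0.10). In the other barcodes of the label it was 151 and 50.8 CPM, with a log2 ratio of -1.57 (-1.89 to -1.27). Averaged over barcodes rather than counts, the log2 ratio of the whole label was -0.10, so the size of the day difference depended on which barcodes entered and how they were weighted.

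In CPM, mural-leading barcodes therefore had more Pdgfrb than any FAP type at both days, whereas the label as a whole did so only at day 2. At day 7 pro-remodeling FAPs at 272 CPM overlapped tenocytes at 235 CPM (192 to 284), and tenocytes overlapped smooth muscle-labelled barcodes at 202 CPM. Of all Pdgfrb counts, smooth muscle-labelled barcodes held 76.5% at day 2 and 19.8% at day 7, and FAPs 20.1% and 73.2%. FAPs were 6.77% of annotated barcodes at day 2 and 25.2% at day 7.

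T cells had 14 Pdgfrb counts at day 2, and all 14 came from 1 barcode. Endothelial barcodes had 6.18 and 3.58 CPM and myogenic barcodes 10.8 at day 7, below the 21.6 and 53.6 CPM of the empty droplets.

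**Figure D3:**
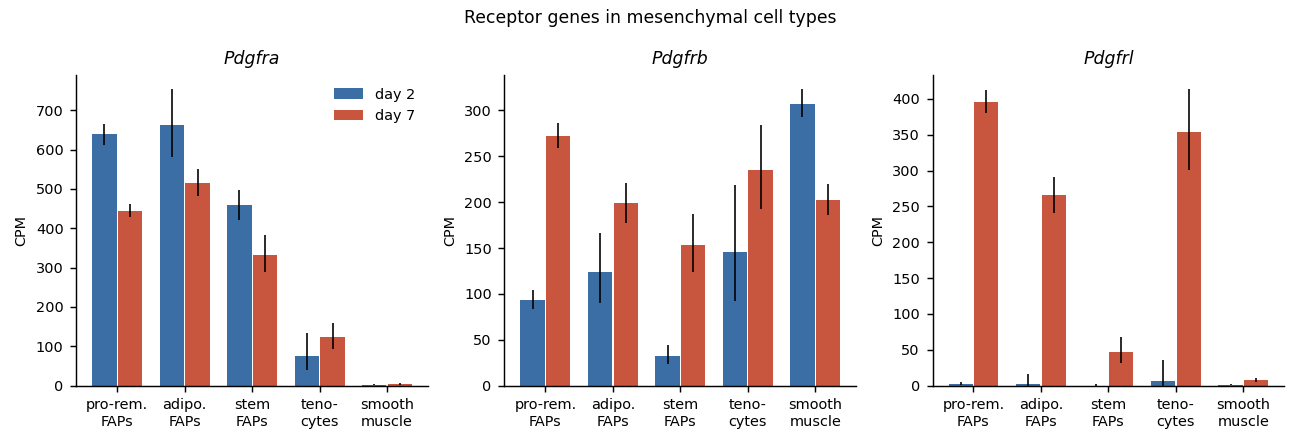
Levels of Pdgfra, Pdgfrb and Pdgfrl in CPM (bars, linear axes from 0) with 95% Poisson intervals in the 3 FAP types, tenocytes and smooth muscle-labelled barcodes at day 2 (blue) and day 7 (red). Pdgfra is lower and Pdgfrb higher at day 7 in each FAP type, and Pdgfrl is near 0 at day 2 and at 396 CPM in pro-remodeling FAPs at day 7.

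Both receptors were often found in the same FAP. Of 215 FAPs at day 2, 150 had counts of both, which is 69.8% (63.2 to 75.8), and of 805 at day 7, 557 had both, which is 69.2% (65.9 to 72.4). These shares are not comparable as they stand, because day 2 FAPs held more counts per barcode, the medians given above. At 2000 counts per barcode 5.63% of 213 FAPs (2.94 to 9.63) and 21.0% of 785 (18.2 to 24.0) had both, the same order as the Pdgfrb level. At that depth Pdgfrb was found in 9.92% of FAPs with a Pdgfra count and 10.9% of those without at day 2, and in 37.2% and 32.6% at day 7. In smooth muscle-labelled barcodes only 5 of 304 and 2 of 232 had both receptors.

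Pdgfrl, the receptor-like gene, had the largest difference between the libraries of the 7 members in FAPs. FAPs held 10 counts at day 2, 1.95 CPM (0.934 to 3.58), and 2799 counts at day 7, 343 CPM (331 to 356), a day difference of 7.46 on the log2 scale (6.58 to 8.52), and 8.55 among FAP barcodes with few counts of other stromal, vascular or immune markers. Pro-remodeling FAPs went from 2.57 to 396 CPM and adipogenic FAPs from 2.81 CPM, from 1 count, to 265, a log2 ratio of 6.56 with an interval from 4.08 to 11.9. Stem FAPs held 0 counts at day 2 and 29 at day 7, 47.3 CPM. With day 2 set at 3 counts this is 20-fold higher, and the lower limit of the log2 ratio was 3.93. The order at day 7 was pro-remodeling, adipogenic and then stem FAPs, with no overlap between neighbours.

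Tenocytes had 1 Pdgfrl count in 16 barcodes at day 2 and 158 counts in 48 barcodes at day 7, 354 CPM (301 to 413), and overlapped pro-remodeling FAPs. FAPs held 86.8% of all Pdgfrl counts at day 7. The share of FAPs with a count was 4.19% at day 2 and 71.3% at day 7, and 0 of 213 and 40.0% of 785 when thinned to 2000 counts. At that depth the 0 of 213, with 3 barcodes taken as the limit, allows up to 1.41% of barcodes with a count, which does not limit the share of FAPs that express the gene.

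MuSCs at 112 CPM (89.2 to 138) and myoblasts/progenitors at 52.4 (43.8 to 62.3) also held Pdgfrl at day 7, in 62 of 137 and 65 of 175 barcodes. Empty droplets of that library had 67.1 CPM, above the myoblast and stem FAP levels. The MuSC level was 32.6% and the myoblast level 15.3% of that in FAPs, while the 7 FAP markers in the same barcodes were at 2.62% and 1.0% of their level in FAPs. In types outside the FAP, tenocyte and myogenic classes Pdgfrl was at most 7.38 CPM at day 7. How far RNA of FAPs enters the myogenic values was not tested.

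Pdgfrl and Pdgfra were found together in 66.7% of FAPs at day 7, and at 2000 counts Pdgfrl was seen in 39.4% of FAPs with a Pdgfra count and 40.8% of those without. Among stem FAPs at that depth 5 of 74 had a Pdgfrl count.

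The members' differences are read beside those of all genes. In FAPs 25.6% of 11851 genes with 20 counts or more were at least 2-fold higher at day 7 and 14.0% at least 2-fold lower, with a median log2 ratio of 0.21. Of the 6 members measured there, Pdgfrl, Pdgfd and Pdgfrb were at least 2-fold higher and none lower, with a member median of 1.30, and Pdgfd was below the empty droplets at both days. Relative to the median gene, Pdgfra was at -0.61, Pdgfrb at 1.42, Pdgfrl at 7.25 and Pdgfa at 0.77 on the log2 scale.

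In smooth muscle-labelled barcodes 14.1% of 11039 genes were at least 2-fold higher and 7.86% lower. Of 6 members measured, Pdgfrl was past that fold upwards, from 7 and 20 counts, and Pdgfa downwards. That Pdgfrl level was 1.37 CPM at day 2 and 7.38 at day 7, beside 0.327 and 67.1 CPM in the empty droplets, and is not read as expression in these cells. At day 7 Pdgfrl was 12.1 CPM (5.22 to 23.8) in mural-leading barcodes and 5.86 (3.03 to 10.2) in the others of the label. The 27 barcodes with under 3 endothelial marker counts held 6 counts, 52.8 CPM (19.4 to 115). Whether mural cells express Pdgfrl was not tested. The median gene of this class was at 0.10, and relative to it Pdgfa was at -1.77, Pdgfrb at -0.70 and Pdgfb at 0.63. In endothelial barcodes 14.9% of 9616 genes were higher and 9.50% lower, and of 4 members Pdgfa was lower. In both vascular classes these numbers depended on the count minimum. With at least 100 counts in 1 library, fewer genes passed 2-fold there and lower genes outnumbered higher ones. In monocytes and macrophages 19.3% of 11318 genes were higher and 12.8% lower, and of 5 members Pdgfb, Pdgfa, Pdgfrb and Pdgfra were higher, the last pair at 2.26 and 1.86 CPM at day 7, below the empty droplets at both days. Pdgfc in these cells was 6.01 and 8.11 CPM, a day difference of 0.43 on the log2 scale (-0.05 to 0.91).

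**Figure D4:**
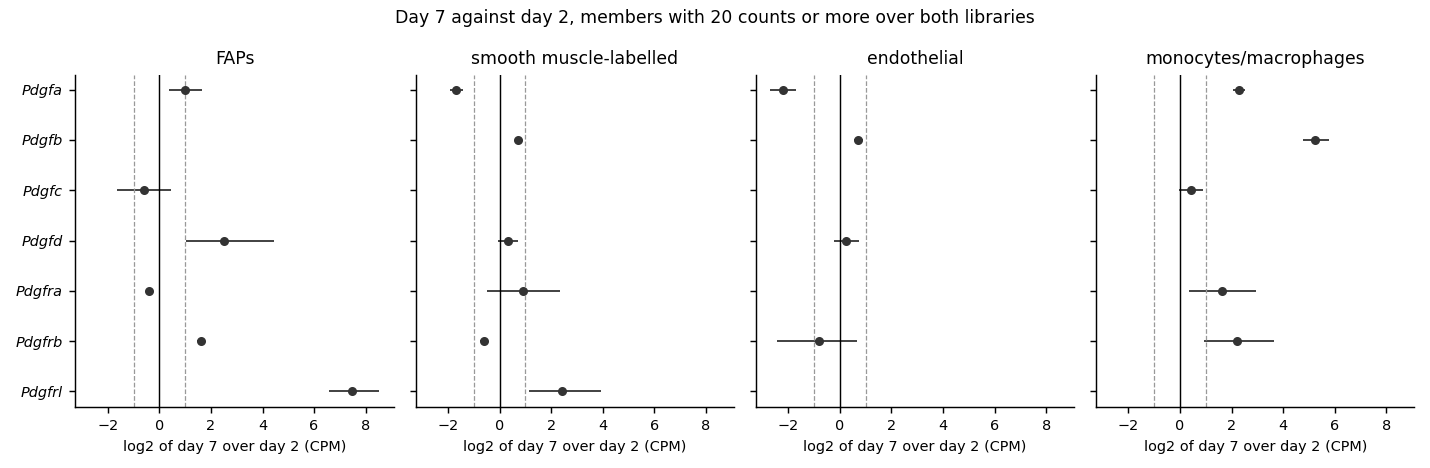
Log2 ratio of day 7 over day 2 for each member with 20 counts or more in FAPs, smooth muscle-labelled, endothelial and monocyte/macrophage barcodes, with 95% binomial intervals as bars, a solid line at no difference and dashed lines at 2-fold. Pdgfa lies below 0 in vascular classes and above 0 in FAPs and myeloid cells, and Pdgfrl in FAPs lies farthest to the right at 7.46.

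**Figure D5:**
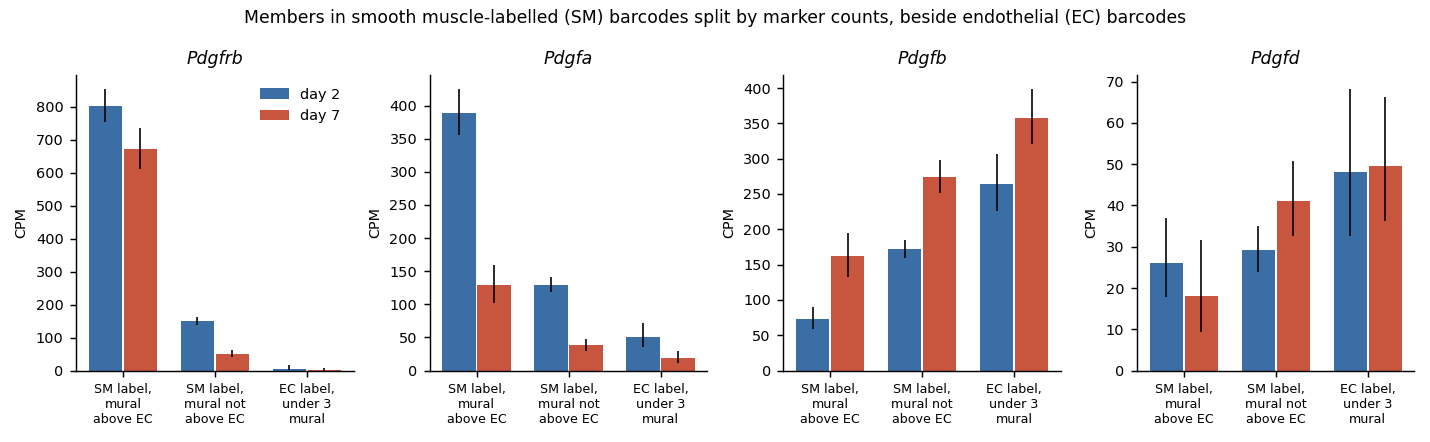
Levels in CPM (bars, linear axes from 0, 95% Poisson intervals) of Pdgfrb, Pdgfa, Pdgfb and Pdgfd in smooth muscle-labelled (SM) barcodes with more mural than endothelial marker counts, in the other smooth muscle-labelled barcodes, and in endothelial (EC) barcodes with under 3 mural marker counts, at day 2 (blue) and day 7 (red). Pdgfrb and Pdgfa are highest in the mural-leading set, at 803 and 389 CPM at day 2, and Pdgfb is highest in endothelial barcodes, at 264 CPM at day 2.

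The split of smooth muscle-labelled barcodes placed Pdgfa with the mural transcripts. Mural-leading barcodes had 389 CPM at day 2 (355 to 426) and 128 at day 7 (103 to 159), and the others 129.5 and 38.1 CPM. The log2 ratios were -1.60 (-1.95 to -1.26) and -1.77 (-2.13 to -1.42), with overlapping intervals. In the few barcodes with under 3 endothelial marker counts, 9 at day 2 and 27 at day 7, it was 434 and 317 CPM from 15 and 36 counts, with a log2 ratio of -0.45 (-1.36 to 0.52). Endothelial Pdgfa was 133 CPM at day 2 in barcodes with 3 or more mural marker counts and 51.2 in those with fewer, and the lower day 7 level was seen in both sets, at -2.09 (-2.76 to -1.48) and -1.45 (-2.39 to -0.57) on the log2 scale.

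The 6 lists of other genes of the pathway were read in FAPs and in smooth muscle-labelled barcodes, by counts of genes past 2-fold against the shares of all genes above. Among 6 measured proteases that cut PDGF precursors in FAPs, 3 were higher at day 7 and 1 lower, with a list median of 0.72. The proprotein convertases Pcsk6 and Pcsk5 were at 2.11 each and the plasminogen activator Plat, which can cut PDGF-C, at 1.60, whereas Plau was at -1.61 and Furin at -0.30. Smooth muscle-labelled barcodes had 1 of 5 lower, Plau at -1.22, with Furin at -0.77, Pcsk7 at 0.30 and Plat at 0.19.

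Among 5 measured genes for ligand binding and co-receptors in FAPs, 3 were higher and 1 lower, with a median of 1.4. Sparc, a matrix protein that binds PDGF-B, was at 2231 and 12044 CPM, a log2 ratio of 2.43, Nrp1 was at 1.49 and Lrp1 at 0.89, and Thbs1 was lower at -1.93. In smooth muscle-labelled barcodes 1 of 5 was higher, Nrp1 at 1.27, and 1 lower, Thbs1 at -2.30, with Cspg4, also among the mural markers, at 0.65 and Sparc at 0.23.

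Of 22 measured receptor-proximal genes in FAPs, 8 were higher and none lower, with a median of 0.56. Pik3r2, a regulatory subunit of phosphoinositide 3-kinase, was at 2.25 and the adaptor Gab1 at 2.08, and Stat5a at -0.84 and the phosphatase Ptpn11 at -0.70 were lowest. In smooth muscle-labelled barcodes 4 of 23 were higher and none lower, with Pik3r2 at 1.82, Stat3 at -0.83 and Crkl at -0.54. None of the 12 Ras, MAP kinase and Akt genes passed 2-fold in either class. In FAPs this list had a median of -0.34, with Braf at 0.45, Hras at -0.91 and Map2k2 at -0.75, and in smooth muscle-labelled barcodes the range ran from Nras at -0.62 and Akt2 at -0.38 to Map2k1 at 0.35 and Mapk3 at 0.77.

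Of 11 negative regulators in FAPs, 1 was higher and 2 lower, with Spry1, an inhibitor of receptor tyrosine kinase signalling, at 2.19 and the tyrosine phosphatases Ptprj at -1.36 and Ptpn2 at -1.04. Smooth muscle-labelled barcodes had 1 of 11 lower, Spry2 at -1.22, with Ptpn2 at -0.85, Spred1 at 0.62 and Spry1 at 0.57. Of 9 measured immediate early genes, which dissociation of tissue is also known to induce, 3 were higher in FAPs and 2 lower, with Egr2 at 1.90, Egr1 at 1.27, Fosl1 at -4.58 and Ier3 at -2.26. Smooth muscle-labelled barcodes had 3 of 9 lower and none higher, with Fosl1 at -3.30, Fosb at -2.17, Egr1 at -0.27 and Fos at -0.29.

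Genes whose levels ran most like each member were sought over 41 units, each a cell type of 1 library with 20 barcodes or more, among 11230 genes with 200 counts or more. Pearson's r of log2(CPM + 1) is a description here, since units of 1 library share its depth and free RNA and neighbouring types share cells by annotation. For Pdgfra the nearest genes were Osr1 and Dcn at 0.94 each and Twist2 at 0.93. For Pdgfrb they were Naalad2 at 0.91, Enpep at 0.90 and Map1a at 0.90, and for Pdgfrl Fibin at 0.91, 1500015O10Rik at 0.90 and Mfap4 at 0.90.

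Pdgfd ran with Foxc1 and Galnt15 at 0.90 each and Tek at 0.89, and Pdgfb with Tspan13 at 0.87, F11r at 0.86 and Mfng at 0.85. Pdgfa reached only 0.60 with Man2a2 and 0.59 with Arl2 and with Nes, and Pdgfc 0.61 with Wls and 0.60 with Timp2. Among the members themselves Pdgfra and Pdgfrb had r of 0.66, Pdgfrb and Pdgfrl 0.64, and Pdgfra and Pdgfb -0.54.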

How the data were processed

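Whole-muscle cells of 1 library per day were sequenced. Per the submitters' processing notes, the authors used Cell Ranger 3.1.0 and Seurat 3.1.5 with mm10. The deposited counts are unique molecules per gene and barcode, not normalised, and were used for all main values. The authors also deposited estimated counts from which SoupX had removed free RNA, used here for the limits on barcodes and as an alternative. Their cell table gives cell types made after removal of putative doublets. It holds no doublet calls, and no doublet caller was run here.

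Barcodes in the table with at least 750 genes, 1000 transcripts and at most 30% mitochondrial transcripts were kept, which removed 329 at day 2 and 195 at day 7. Another 680 and 477 called barcodes passed these limits but were not in the table. Counts were summed per type, scaled to CPM and given exact 95% intervals. Day ratios across all genes used genes with 20 counts or more over both libraries, and counts under 3 were taken as 3. Ratios of members were given for types with 20 or more and classes with 50 or more barcodes in both libraries. A rule named all 7 members, the 3 most alike genes of each, and the 2 highest and 2 lowest genes of each pathway list in FAPs and smooth muscle-labelled barcodes. Some genes that the rule names are not reported here. Plat in FAPs was named after its value was seen. The members and lists were chosen with earlier results of these data known. Alternatives were SoupX values, stricter or no limits on barcodes, means over barcodes, median-of-ratios scaling, purer barcodes (3 or more counts of their own class's markers and under 3 of each other stromal, vascular or immune class's), equal weight of classes and a higher count minimum. Analyses used Python 3.11.15, numpy 2.4.6, scipy 1.17.1 and pandas 2.3.3 and were tested on simulated data.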

Additional observations from a re-analysis of the deposited data

Results flagged for a closer look

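Members were marked for a closer look where their day difference had opposite directions in classes of cells, with intervals on either side of 0. Pdgfa was at 0.98 in FAPs and 2.27 in monocytes and macrophages, but at -1.67 in smooth muscle-labelled and -2.18 in endothelial barcodes, as log2 ratios of day 7 over day 2. Pdgfrb was at 1.63 in FAPs and 2.22 in monocytes and macrophages, the latter from 8 and 17 counts, and at -0.60 in smooth muscle-labelled barcodes. Pdgfra was at -0.40 in FAPs and 1.62 in monocytes and macrophages, the latter from 10 and 14 counts. In monocytes and macrophages Pdgfrb was 0.485 and 2.26 CPM and Pdgfra 0.607 and 1.86 CPM, below the 21.6 and 53.6 CPM and the 42.6 and 68.5 CPM of the empty droplets, so the direction of either receptor in these cells is not read as expression. Pdgfa in FAPs, at 5.65 and 11.2 CPM, was also below the empty droplets, at 15.7 and 27.4 CPM. None of these differences between classes was tested, since each day has 1 library.

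The members also had counts in called barcodes that passed the limits but carry no annotation and enter no comparison, 680 at day 2 and 477 at day 7. At day 2 these held 67.7 CPM of Pdgfa, 32.9 of Pdgfb, 3.67 of Pdgfc, 3.85 of Pdgfd, 116 of Pdgfra, 45.3 of Pdgfrb and 1.05 of Pdgfrl. At day 7 they held 108 CPM of Pdgfa, 142 of Pdgfb, 10.5 of Pdgfc, 11.7 of Pdgfd, 36.5 of Pdgfra, 64.6 of Pdgfrb and 42.3 of Pdgfrl.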

How the results depend on the processing

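No paired analysis was possible because each day has 1 library, and for the same reason no library could be left out. Of 196 alternative values over 45 results, 155 lay within the counting interval or, for numbers of genes, within 1.5 times the reported one, 40 moved further, and among day ratios whose interval did not hold 0, 1 changed sign: Pdgfa in FAPs was at -0.60 among purer barcodes. Ratios whose interval held 0 also changed sign: Pdgfc in FAPs, at -0.58, was at 0.35 as a mean over barcodes and 1.08 among purer ones, and in smooth muscle-labelled barcodes Pdgfd, at 0.32, was negative in both splits below and Pdgfra, at 0.91, was at -0.70 in mural-leading barcodes. The cause was not tested for any of them. On the log2 scale, median-of-ratios scaling gave -0.61 for Pdgfra and 1.42 for Pdgfrb in FAPs. Purer barcodes gave 1.27 for Pdgfrb and 8.55 for Pdgfrl in FAPs, -1.32 for Pdgfa and -0.94 for Pdgfrb in smooth muscle-labelled barcodes, of which 7 remained per day, and -1.38 for Pdgfa and 0.37 for Pdgfb in endothelial barcodes. Pdgfrb in smooth muscle-labelled barcodes was at -0.10 as a mean over barcodes, with levels of 375 and 351 CPM, and at -0.81 under stricter limits. Both splits of that label were chosen after seeing the data. With under 3 endothelial marker counts Pdgfa was at -0.45, Pdgfrb at -1.07 and Pdgfd, from 1 count a day, at -1.72. In mural-leading barcodes Pdgfrb was at -0.26 and Pdgfd at -0.53. With at least 100 counts in 1 library, 1680 genes rather than 3031 were 2-fold higher in FAPs and 886 rather than 2186 in monocytes and macrophages. The same minimum left 520 higher and 550 lower in smooth muscle-labelled barcodes, rather than 1555 and 868, and 465 and 496 in endothelial barcodes, rather than 1428 and 914. With equal weight for each class, the day 2 and day 7 shares of Pdgfb were 44.3% and 41.3% in endothelial and 0.448% and 9.62% in monocyte/macrophage barcodes. Those of Pdgfrb were 13.6% and 33.9% in FAPs and 51.9% and 27.6% in smooth muscle-labelled barcodes. FAPs with both receptors were 5.63% and 21.0% when thinned, 47.0% and 45.5% with at least 2 counts of each, and 75.3% at day 7 under stricter limits. Intervals throughout cover counting error, not differences between animals.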
